A study of Mus musculus with 2 samples.

Results

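The glutathione transferases and glutathione peroxidases of the newborn mouse adrenal gland were taken as all genes whose symbol is a Gst class letter (a, k, m, o, p, t or z) with a number, Mgst with a digit, or Gpx with a digit. The symbols gave 33 of 55536 annotated genes: 22 soluble or kappa-class transferases, 3 microsomal transferases and 8 peroxidases, all annotated as protein-coding. Total RNA depleted of ribosomal RNA was sequenced from the adrenal gland of male B6CASTF1/J mice aged 4 days, the F1 hybrid of C57BL/6J and CAST/EiJ. There was 1 group with 2 biological replicates, no treatment and no second genotype, and each library started from 300 ng RNA, to which ERCC spike-in transcripts were added. The labels number the glands as different males but give them a common donor label, so comparisons between the replicates measure the spread between these libraries.

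Glutathione is a small thiol held at high concentration in most cells. Transferases join it to electrophilic compounds, among them products of lipid oxidation, and peroxidases use it to reduce hydrogen peroxide and lipid peroxides. The adrenal cortex makes steroids with mitochondrial cytochrome P450 enzymes, whose electron transfer releases reactive oxygen species, and it stores and imports much lipid. Several peroxidases carry selenocysteine, an amino acid inserted at a UGA codon that otherwise ends translation.

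Library depth (the sum of expected counts over genes) was 32231301 for replicate 1 and 30292851 for replicate 2. A count of 0 therefore allowed up to 0.0931 and 0.099 CPM, the share that 3 counts give, which covers counting error only. The 8 cortex and 8 medulla markers were all detected, with medians of 801 and 201 TPM, a level per transcript length scaled to a fixed total per library. The libraries differed in markers of neighbouring and circulating tissues. All 12 liver markers were higher in replicate 2, with a summed level of 245 TPM in replicate 1 and 6414 TPM in replicate 2, and none was at 0. Of 12 kidney markers, 7 passed the filter on low counts, all higher in replicate 1, and 5 of these were called. Kap, which did not pass, went the other way with 1 and 11 counts. The summed level of the 12 was 9.31 and 4.74 TPM. The 8 skeletal muscle and 7 erythroid markers had median log2 ratios of 0.79 each, replicate 2 over replicate 1, while all 8 cortex markers had negative ratios (median -0.38), as had all 8 medulla markers (-0.24). Of the 8 adipocyte markers 7 were detected, and the 8 summed to 689 and 846 TPM. Their median log2 ratio was 0.10, with 6 higher in replicate 2 and 2 higher in replicate 1. Lep (-1.10) was called higher in replicate 1. The 7 macrophage markers were at a summed 91.2 and 107 TPM (median log2 ratio 0.05). In whole glands, fewer cells of a type and less RNA per cell cannot be told apart.

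The peroxidases divide by the codon at their catalytic position, and the coding sequence around it is shown because most of the peroxidase RNA came from the selenocysteine genes. Each line gives 45 bases of the annotated coding sequence (GENCODE M21, mm10), with the catalytic codon in capitals. It was placed in the other genes by alignment to the annotated selenocysteine codon of Gpx1.
Gpx1: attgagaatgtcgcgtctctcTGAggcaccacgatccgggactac
Gpx2: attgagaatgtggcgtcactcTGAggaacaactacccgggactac
Gpx3: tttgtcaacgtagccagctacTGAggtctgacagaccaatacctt
Gpx4: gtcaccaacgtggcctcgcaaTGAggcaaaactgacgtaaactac
Gpx5: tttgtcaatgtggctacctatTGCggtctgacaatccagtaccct
Gpx6: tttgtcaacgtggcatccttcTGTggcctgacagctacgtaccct
Gpx7: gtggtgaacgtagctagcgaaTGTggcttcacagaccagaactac
Gpx8: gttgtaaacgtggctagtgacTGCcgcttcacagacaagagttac
Gpx1, Gpx2, Gpx3 and Gpx4 had an annotated in-frame TGA, and the other 4 genes had a cysteine codon, TGC or TGT, at the same place. The codon lies at chr9:108339451-108339453 in Gpx1, on the plus strand, and at chr10:80054737-80054739 in Gpx4, also on the plus strand. It is codon 47 of 201 in Gpx1 and codon 129 of 253 in the longest Gpx4 reading frame, as its only in-frame stop triplet before the end. The 4 TGA genes made up 90.6% of the summed peroxidase TPM in replicate 1 and 90.1% in replicate 2.

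At a mean of 1 TPM or more, 25 of the 33 genes were detected, and 20 were at 10 TPM or more. The median of the detected genes was 26.6 TPM, against 11.5 TPM for the 13305 of 22028 protein-coding genes detected. The level was uneven: Mgst1, Gpx4 and Gpx1 together held 55.5% of the TPM summed over the 33 genes, and with Gstp1 the share was 63.5%. By class, peroxidases held 36.1% ± 1.01 (SD, n = 2) of the sum and microsomal transferases 28.4% ± 1.54. The mu class held 12.5% ± 0.24 and the pi class 10.1% ± 1.29. Omega, kappa, alpha, zeta and theta held between 1.95% and 3.33% each. The sums for replicates 1 and 2 were 1249 and 1255 TPM, or 0.342% and 0.32% of the TPM of all protein-coding genes.

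**Figure D1:**
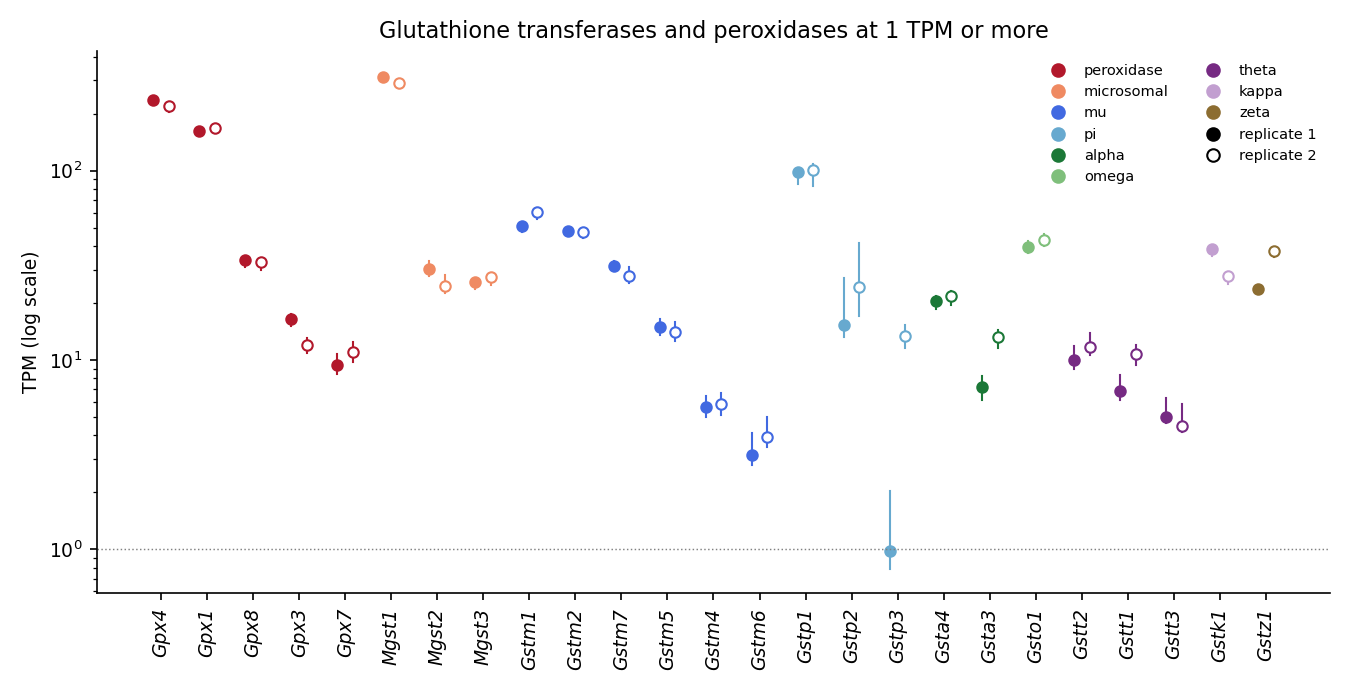
TPM (log axis) of each gene at a mean of 1 TPM or more, with 1 filled point for replicate 1 and 1 open point for replicate 2, coloured by class, and vertical lines for the intervals deposited with the gene tables. Mgst1, Gpx4, Gpx1 and Gstp1 stand above all others, and Gstp3 is the gene whose points lie furthest apart.

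**Figure D2:**
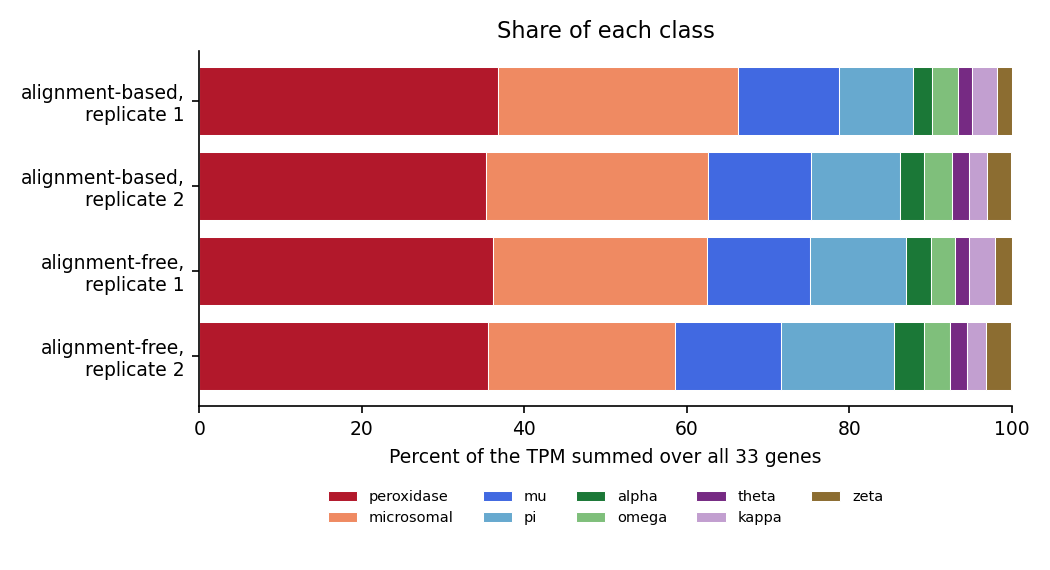
Percent of the TPM summed over all 33 genes (x axis) held by each class, with 1 bar for each library in each kind of table. Peroxidases hold the largest share in all 4 bars, from 35.3% to 36.8%, followed by microsomal transferases, from 23.1% to 29.5%.

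Sorted by mean TPM, each gene from Mgst1 down to Gsto1 had library values that did not overlap those of the next gene. Lower down the order was less firm. Of all 24 neighbouring pairs among the detected genes, 12 had overlapping values, including every step from Gpx8 down to Mgst3.

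Gpx4, which reduces phospholipid hydroperoxides within membranes, was the most abundant peroxidase. It stood at 237 TPM in the first replicate and 220.4 TPM in the second, from 4279 and 3742 counts, from the locus at chr10:80047166-80056439 (ENSMUSG00000075706.10), and it ranked 186 among the 22028 protein-coding genes. Gpx1, the soluble enzyme that reduces hydrogen peroxide, was at 162 and 168 TPM from 4049 and 3729 counts. The TPM of Gpx1 was higher in replicate 2 and its count lower; after TMM scaling of the counts the log2 ratio of replicate 2 over replicate 1 was -0.06. TPM and count ratios use different scales, since protein-coding genes took 36.6% of all TPM in replicate 1 and 39.2% in replicate 2. Gpx8, a peroxidase of the endoplasmic reticulum, was at 33.8 and 32.8 TPM. Its relative Gpx7, in the same compartment, was at 9.43 and 11 TPM. Gpx3 encodes the secreted plasma peroxidase. It was at 16.5 and 12 TPM, from 815 and 535 counts, so that replicate 1 was 1.46-fold higher (exact binomial test, adjusted p = 1.01e-10), below the 2-fold used for a call. The selenoprotein gene Gpx2, best known from gut epithelium, had 1 count in replicate 1 and 0 in replicate 2. Gpx6 had 1 count in each library and Gpx5, known from the epididymis, had 0 in both.

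Mgst1, a membrane transferase of the endoplasmic reticulum and outer mitochondrial membrane that also reduces lipid peroxides, was the highest of all 33 genes. It reached 312 TPM in replicate 1 and 291 TPM in replicate 2, from 6440 and 5166 counts at chr6:138140316-138156755 (ENSMUSG00000008540.11), and ranked 136 among protein-coding genes. Replicate 1 was 1.2-fold higher (exact binomial test, adjusted p = 1.83e-20), a small difference measured on many counts. Mgst2, which can make leukotriene C4, was at 30.2 and 24.6 TPM from 515 and 409 counts. The TPM of Mgst3 was 25.9 and 27.4 from 855 and 815 counts. In these alignment-based levels Mgst2 and Mgst3 thus lay near one another and Mgst1 was about an order of magnitude higher. Alignment-free levels, from reads assigned without aligning them, were 75.3 and 67.3 TPM for Mgst2 and 42 and 42.9 TPM for Mgst3. Mgst1 was at 519.9 and 429 TPM on that scale.

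The 7 mu-class genes lie in one stretch of 149 kb on chromosome 3 (chr3:107895821-108044894). Of these, 6 were detected over a wide range of levels and Gstm3 was near 0. Gstm1 was at 51.2 and 60.2 TPM, from 1889 and 1891 counts. Gstm2 was at 48 and 47.4 TPM, from 1515 and 1345 counts, and Gstm7 at 31.4 and 27.8 TPM, from 1312 and 990.0 counts. These 3 genes are thus the bulk of the mu class. Gstm5 followed at 14.9 and 14.1 TPM, Gstm4 at 5.61 and 5.84 TPM, and Gstm6 at 3.15 and 3.91 TPM. Gstm3 had 3.13 and 4.12 expected counts, or 0.08 and 0.11 TPM, although it lies between Gstm6 and Gstm2. Mu-class enzymes conjugate epoxides and other electrophiles, and the coding sequences of Gstm1 and Gstm3 are 89.5% identical.

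The pi-class genes Gstp1, Gstp2 and Gstp3 lie within 24.2 kb on chromosome 19 (chr19:4035407-4059569), all on the minus strand. Gstp1, the main pi-class enzyme of many tissues, was at 98.4 and 100.5 TPM from 1997 and 1778 counts. Gstp2 was at 15.3 and 24.4 TPM from 257 and 293 counts, and the deposited intervals, 13.2 to 27 TPM and 17.1 to 41.7 TPM, were the widest relative to the level among genes above 10 TPM. Gstp1 and Gstp2 differ at 12 of 633 coding bases (98.1% identity), and 46.9% of the 100-base windows of the Gstp2 transcripts also occur in another gene, mostly Gstp1. The split of reads between the pair is therefore uncertain. Gstp3 shares 72.5% of its aligned coding bases with Gstp1 and no 100-base window with any gene.

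Gstp3 (ENSMUSG00000058216.13, chr19:4057477-4059569) was the only one of the 33 genes called between the libraries, and the gap was large. It had 19 counts in replicate 1 and 226 in replicate 2, or 0.98 and 13.3 TPM, so that replicate 2 was 12.1-fold higher (exact binomial test, adjusted p = 2.73e-46, over all 18160 genes tested). The alignment-free tables, which assign reads without aligning them, gave 18 and 198 counts. With 1 library on each side this compares the libraries and not a condition. The 12 liver markers had log2 ratios from 3.99 to 5.04 in the same direction, against 3.60 for Gstp3, and their part in the Gstp3 result was not tested. The neighbour Gstp1 had a log2 ratio of -0.11.

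The RefSeq start regions of the 3 pi-class genes are shown because the genes are adjacent but differ in level and in their replicate ratio. Each is 90 bases from the RefSeq promoter window (GRCm38.p6, minus strand, 5′ to 3′), with the GC box GGGCGG in capitals.
Gstp1: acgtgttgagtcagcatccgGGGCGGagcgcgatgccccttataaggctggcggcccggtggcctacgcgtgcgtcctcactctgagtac
Gstp2: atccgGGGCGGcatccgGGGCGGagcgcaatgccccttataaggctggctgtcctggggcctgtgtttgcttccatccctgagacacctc
Gstp3: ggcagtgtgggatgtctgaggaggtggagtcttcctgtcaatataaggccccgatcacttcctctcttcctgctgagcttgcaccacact
The stretches lie at chr19:4037903-4037992, chr19:4042212-4042301 and chr19:4059438-4059527. GENCODE M21 also annotates starts further upstream for Gstp2 and Gstp3. Their stretches therefore lie wholly inside the gene coordinates, chr19:4040285-4046023 and chr19:4057477-4059569. Gstp1 had 1 GC box in the stretch and Gstp2 had 2, with a near-identical surround, and Gstp3 had none in these 90 bases although the box occurs elsewhere in its 300-base window. Over that window the GC content was 62.7% for Gstp1, 58.3% for Gstp2 and 53.7% for Gstp3, with 20, 12 and 5 CG pairs. These letters describe the windows and say nothing of which factors bind there.

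The alpha class was low apart from Gsta4, an enzyme with high activity towards 4-hydroxynonenal, a product of lipid peroxidation. Gsta4 was at 20.5 and 21.7 TPM from 597 and 568 counts. Gsta3, known for conjugating aflatoxin epoxide, was at 7.2 and 13.2 TPM from 240.0 and 408 counts. Replicate 2 was 1.77-fold higher for Gsta3 (exact binomial test, adjusted p = 1.86e-11), so it passed the p threshold but not the 2-fold one. Gsta2 had 10.6 and 24.8 expected counts, at 0.42 and 1.08 TPM, and Gsta1 had 2.36 and 0. Gsta1 and Gsta2 coding sequences are 97.9% identical, and 80.6% and 28.4% of their 100-base windows occur in other genes, so their small counts are uncertain.

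Of the omega class, which reduces dehydroascorbate, Gsto1 was at 39.3 and 42.8 TPM from 1330 and 1257 counts. Its neighbour Gsto2, which starts just downstream on the same strand of chromosome 19, was at 0.87 and 0.37 TPM from 30 and 14 counts. The 2 genes share 68% of their aligned coding bases. In the theta class, Gstt2 was at 10 and 11.7 TPM from 307 and 340.0 counts, Gstt1 at 6.87 and 10.7 TPM and Gstt3 at 4.98 and 4.5 TPM. Gstt4, in the same 63.3 kb stretch of chromosome 10 (chr10:75774115-75837424), had 0 counts in both libraries. The mean levels of Gstt1, Gstt2 and Gstt3 thus lay between 4.74 and 10.8 TPM, all under those of Gsto1.

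Gstk1, the only kappa-class gene, encodes an enzyme of mitochondria and peroxisomes. It was at 38.4 TPM in replicate 1 and 27.6 TPM in replicate 2, from 1065 and 694 counts, 1.47-fold higher in replicate 1 (exact binomial test, adjusted p = 2.59e-14). Gstz1, the only zeta-class gene, is the maleylacetoacetate isomerase of tyrosine breakdown. It was at 23.8 and 37.7 TPM from 1295 and 1744 counts, 1.4-fold higher in replicate 2 (exact binomial test, adjusted p = 5.07e-19). Both are single-copy classes with similar means, 33 and 30.7 TPM, and they differed between the libraries in opposite directions. The cortex markers were lower in replicate 2 and the liver markers higher, and their part in either difference was not tested.

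The 8 genes under 1 TPM on average ranged from 0 to 0.75 TPM. They were Gsta2, Gsto2, Gstm3, Gsta1, Gpx6, Gpx2, Gpx5 and Gstt4. Of these, Gsta2 passed 1 TPM in replicate 2, and Gstp3, with a mean above 1 TPM, was below it in replicate 1. At this depth a count of 0, as for Gpx5 and Gstt4, does not exclude RNA below the limit given above.

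The 27 genes that passed the filter on low counts were compared between the libraries. The exact binomial test with Benjamini-Hochberg adjustment at 0.05 and over 2-fold called 1 of them higher in replicate 2, against 3.39% of all 18160 genes tested, and 0 higher in replicate 1, against 0.606%. At any fold, 4 passed the adjusted p in the direction of replicate 2 (Gstz1, Gsta3, Gstt1 and Gstp3), or 14.8% against 15.9% of all genes. In that of replicate 1, 7 passed (Mgst1, Gpx4, Gpx8, Gstk1, Gstm7, Mgst2 and Gpx3), or 25.9% against 17.6% of all genes. The median log2 ratio of the 27 was -0.03, against 0.00 over all genes tested, and 24 of the 27 were within 2-fold, against 95.6% of all. Those outside were Gstp3, Gsta2 (log2 ratio 1.24, adjusted p = 0.0602 by the exact binomial test) and Gsto2 (-1.02, adjusted p = 0.0851 by the same exact test). The median size of the log2 ratio was 0.22, against 0.17 over all genes. The biological coefficient of variation, as edgeR names it, was 0.233 over the genes tested. It was estimated from the 2 libraries alone and includes their differences in liver and other tissue markers.

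**Figure D3:**
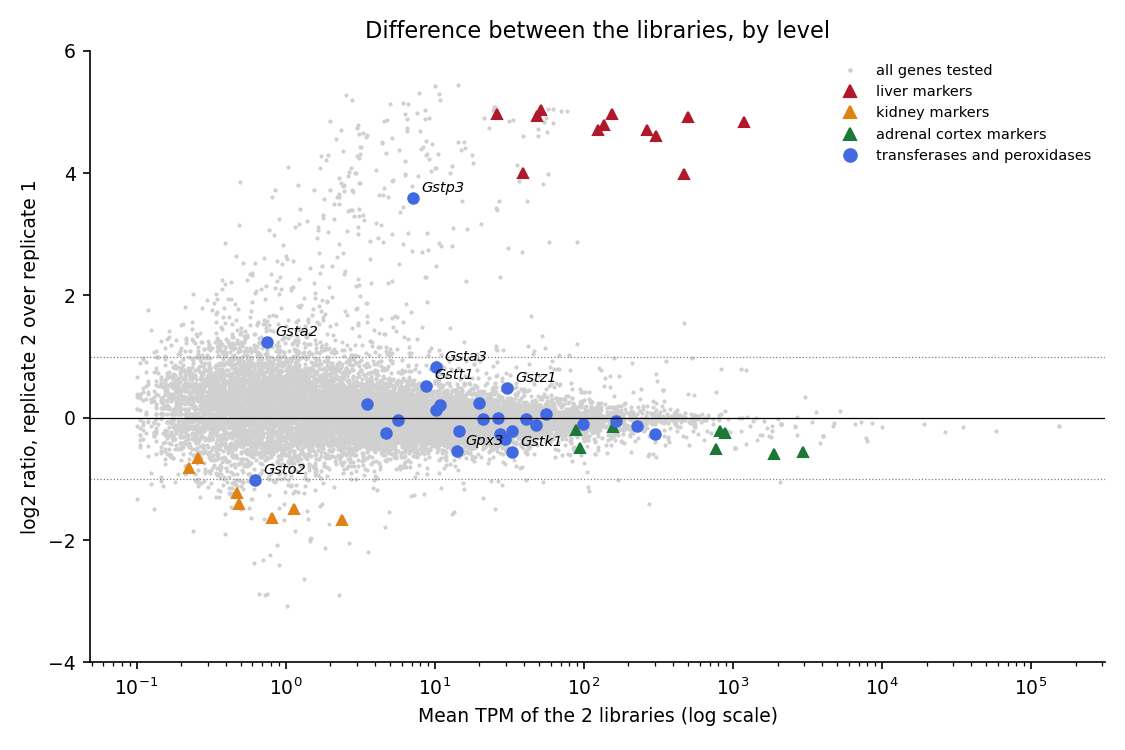
Log2 ratio of replicate 2 over replicate 1 (y axis) against mean TPM (log x axis) for the genes tested at 0.1 TPM or more (grey), the transferases and peroxidases (blue circles), and liver, kidney and adrenal cortex markers (triangles), with dotted lines at a 2-fold difference. Gstp3 is the one blue point near the liver markers, at 3.60, and most other blue points lie close to 0.

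The transcript tables split the 25 detected genes over 121 annotated transcripts. Mgst3 had a single transcript, and of the 24 others 20 had a main transcript with over 50% of the gene's TPM, 9 of them over 90%. The alignment-based and alignment-free tables named the same main transcript for 19 of 24 and a different one for 5: Gpx1, Gpx4, Gstp2, Gstp3 and Mgst1. These include the 3 most abundant genes.

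For Gpx4, a 280-base fragment annotated as a retained intron, Gpx4-203, held 37.8% and 31.6% of the alignment-based TPM but only 12.6% and 10.1% of the counts, and 0 in both alignment-free tables. There Gpx4-202, a reading frame of 197 codons, held 86.1% and 79.8%. A short transcript turns few counts into a high TPM, so part of the TPM of Gpx4 in the alignment-based tables rests on that fragment. The reading frame of 253 codons, Gpx4-201, which starts in an alternative first exon known from the nuclear form of the enzyme, held 4.65% and 5.1%, and 7.6% and 7.14% in the alignment-free tables. Gpx4-207, of 157 codons, held 24.7% and 32.7%, the highest share in replicate 2. Gpx4-201, Gpx4-202 and Gpx4-207 all contain the annotated selenocysteine codon.

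For Gpx1 the annotated reading frames of the 2 leading transcripts differ in whether they include the catalytic codon shown above. Whether the RNA of Gpx1-204 carries the TGA before its annotated start was not examined. Gpx1-201 has 201 codons and includes the TGA, whereas the annotated start of Gpx1-204, at position 108339481 of chromosome 9, lies downstream of it and leaves 145 codons. Gpx1-204 held 50.9% and 54.1% of the TPM in the alignment-based tables, and 36.8% and 41.2% in the alignment-free ones. By counts, Gpx1-201 led in both libraries, with 60.3% and 59.2%. Annotation does not show which start is translated.

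The Mgst1 transcripts also differed between the kinds of table. Mgst1-207, with a reading frame of 51 codons, held 39% and 38.8% of the alignment-based TPM from 2596 and 2166 counts, and 0 in the alignment-free tables, where Mgst1-201, with the full 155 codons, held 62.3% and 62.1%. The 155-codon Mgst1-204 held 38.3% and 35% in the alignment-based tables and 32% and 32.9% in the others. The gene total of Mgst1 was the highest of the 33 in both kinds of table, so the order of the genes did not turn on this split. Gstp2 was led on average by Gstp2-201 in the alignment-based tables (59.7% and 32.3%), although Gstp2-206 held more in replicate 2 (43.1%), and by Gstp2-203 in the alignment-free tables (81.1% and 66.8%). Gstp2-201 and Gstp2-203 were each at or near 0 in the other kind.

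Transcripts not annotated as protein-coding were a sizeable part of a few genes. In the alignment-based tables they took 53.8% of the Gstt2 TPM, mostly from 2 retained-intron models, 35.7% of Gpx4, 35.1% of Gsto1 and 30.9% of Gstp1. For Gsto1 the processed transcript Gsto1-204 held 19% in replicate 1 and 34.1% in replicate 2. The shares in the alignment-free tables were 42.6% for Gstt2, 0.115% for Gpx4 and 15.1% for Gsto1. For Gstp3 they were 3.05% in the alignment-based and 53.9% in the alignment-free tables, where the processed transcript Gstp3-204 led. A main transcript above 90% in the alignment-based tables was found for Gpx3, Gpx7, Gsta4, Gstk1, Gstm2, Gstm6, Gstm7, Gstt1 and Gstt3, of which only Gpx7 and Gstm6 were also above it in the alignment-free tables.

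**Figure D4:**
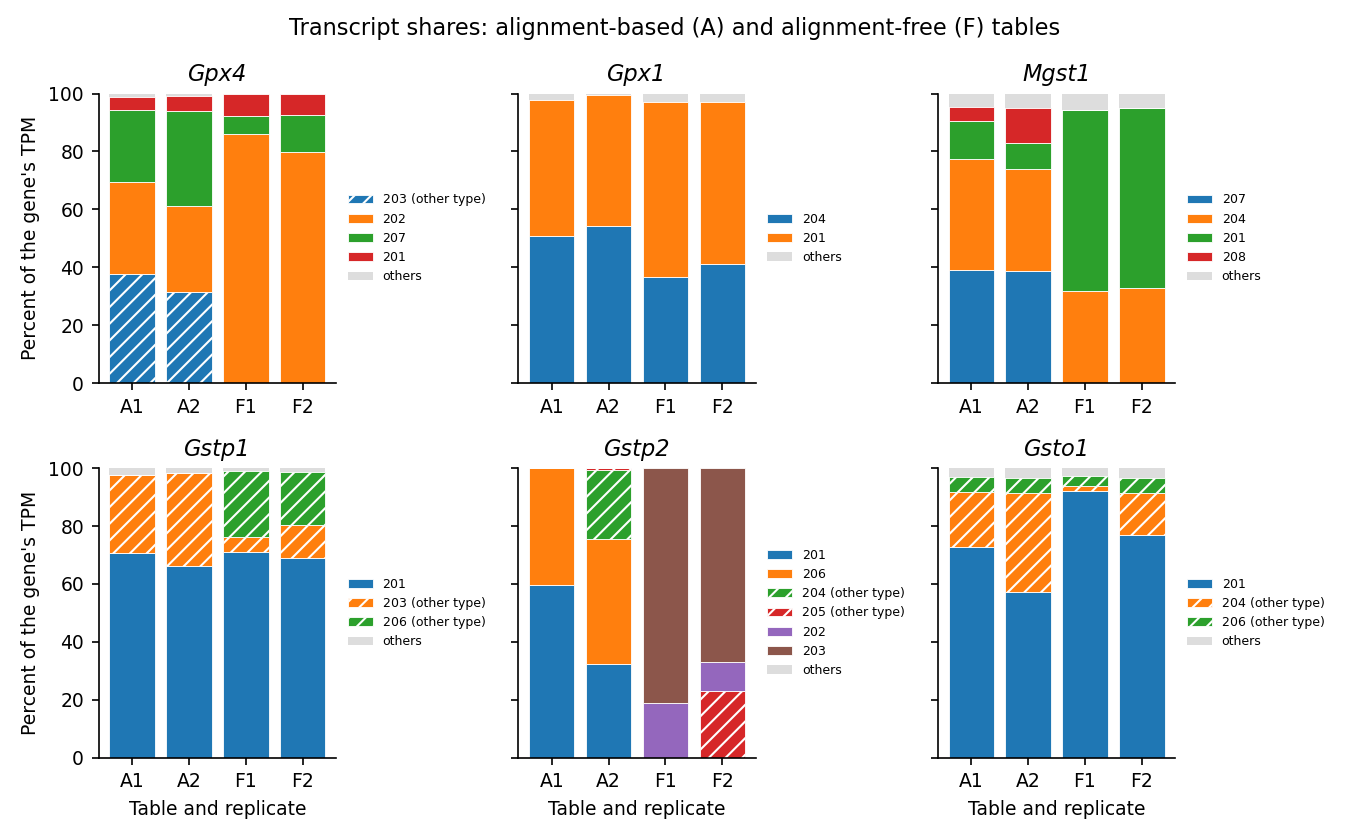
Percent of the gene's TPM (y axis) held by each transcript in the alignment-based (A) and alignment-free (F) tables of replicates 1 and 2, for 6 genes, with hatching for transcripts not annotated as protein-coding and grey for transcripts under 4% in every bar. The transcript with the highest mean share of Gpx4, Gpx1, Mgst1 and Gstp2 differs between the kinds, while Gstp1-201 and Gsto1-201 lead in all 4 bars.

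The level of the alignment-free tables ran higher in general. Over the 14447 genes of any type at 1 TPM or more in both kinds of table, the median was 1.88-fold, after rescaling to the genes in both tables. As a result none of the 25 detected genes was within 1.5-fold of its alignment-based level, and only 6.02% of these 14447 genes were. Relative to that median, 24 of the 25 detected genes were within 1.5-fold. Gstp3 was the exception, with a log2 ratio of 0.60 above the median, where 7.25% of the 14447 genes lay outside. The first 6 genes held the same order in both kinds of table. Pseudogenes and near copies were the other place where reads could be divided. Of the 100-base windows, 25.2% of those of Gpx4 occur in another gene, most often the processed pseudogene Gpx4-ps2. For Gstp1 the share was 25.1%, most often in Gstp2.

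The promoter windows of RefSeq (300 bases, GRCm38.p6) matched 31 of the 33 genes. The motif TGACNNNGC, a form of the antioxidant response element that NRF2 binds with small MAF proteins, was searched on both strands. These letters occurred for 4 of 31 (12.9%), against 14% of 27025 genes. Forms with another base in place of the first C, such as the letters tgagtcagc in the Gstp1 stretch above, were not searched. A match of letters does not show binding. The 4 windows are shown because transferases are textbook NRF2 targets. The motif is in capitals, read on the gene's strand.
Gsta3: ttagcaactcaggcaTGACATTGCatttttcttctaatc
Gstm5: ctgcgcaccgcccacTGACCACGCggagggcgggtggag
Gstm7: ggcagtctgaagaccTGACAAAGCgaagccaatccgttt
Mgst1: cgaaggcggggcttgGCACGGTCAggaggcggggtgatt
In Mgst1 the capitals are the reverse complement of the motif. The windows lie at chr1:21240449-21240487, chr3:107895797-107895835, chr3:107931720-107931758 and chr6:138140456-138140494, and the motif starts 121, 42, 129 and 56 bases before the RefSeq start that places each window. GENCODE M21 annotates other starts for these genes, so that the Gstm7 and Mgst1 motifs lie inside the gene coordinates of the tables. Known distal elements lie outside such windows and were not analysed here. The GC box GGGCGG, on both strands, was present for 17 of 31 (54.8%) against 38.2% of all genes, and the NR5A1 motif CAAGGTCA for 0 of 31 against 1.76%. Overlaps between motifs were not removed.

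Other genes of glutathione metabolism came from lists chosen for their roles. Of 8 genes for synthesis and precursor uptake, 7 were detected. The amino acid transporter chain Slc3a2 was at 57.6 and 57.1 TPM, and the glutamate-cysteine ligase subunits Gclm and Gclc were at 22.7 and 31.2 TPM and at 11.4 and 16.1 TPM. The cystine transporter subunit Slc7a11 was at 0.09 and 0.12 TPM. Cbs, which makes cystathionine from homocysteine, was the one call of the list, at 1.51 and 10.1 TPM and a log2 ratio of 2.51.

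Genes for the reduction of glutathione disulfide and the supply of NADPH were higher than the transferases and peroxidases as a group. Their median was 90.1 TPM over 9 genes, all detected, against 14.2 TPM over all 33 and 26.6 TPM over the 25 detected. Idh1, which makes NADPH in the cytosol, was at 174 and 132 TPM, Tkt of the pentose phosphate pathway at 152 and 145 TPM, and malic enzyme Me1 at 167 and 121 TPM. None was called at 2-fold. The 15 genes for other peroxide and superoxide enzymes had a median of 91.8 TPM and no call. Among these, superoxide dismutase Sod1 was at 449 and 401 TPM, and the peroxiredoxins Prdx2 and Prdx1 were at 229 and 219 TPM and at 177 and 187 TPM. Of the genes of the 7 lists, only Sod1 was above Mgst1.

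Breakdown and export genes were lower, with a median of 2.69 TPM over 15 genes, of which 12 were detected. Lap3, Oplah and Anpep led, at 27.3 and 29.9 TPM, 22.8 and 26.4 TPM, and 8.61 and 12.8 TPM. The exporter Abcc2 was called higher in replicate 2, at 0.17 and 3.46 TPM (log2 ratio 3.58), and the membrane enzyme Ggt1, which cleaves extracellular glutathione, was called higher in replicate 1, at 1.35 and 0.41 TPM (log2 ratio -2.07). Abcc2 and Cbs moved with the 12 liver markers (median log2 ratio 4.81) and Ggt1 with the 7 kidney markers that passed the filter (-1.41), whose part was not tested.

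Selenoprotein synthesis was represented by all 12 genes of its list, with a median of 9.96 TPM. Selenop, the plasma selenium carrier, was the highest, at 104 and 217 TPM (log2 ratio 0.98), just under the 2-fold threshold. The serine-tRNA ligase Sars was at 60.7 and 57.9 TPM and the selenophosphate synthetase Sephs2 at 27.3 and 40.9 TPM. The selenoprotein receptor Lrp2, also a kidney marker, was the one call, higher in replicate 1 at 1.56 and 0.72 TPM. The NRF2 list had 9 of 9 detected and no call: Nfe2l1 was at 112 and 95.4 TPM, Nfe2l2, which encodes NRF2, at 28.9 and 28.5 TPM, and Mafg at 20.2 and 18.2 TPM. Of the 15 glutaredoxins and glutathione-binding relatives 14 were detected, led by Esd (66.6 and 69.7 TPM), Glrx5 (49.7 and 49.2 TPM) and Clic1 (46.3 and 48.4 TPM), again with no call.

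**Figure D5:**
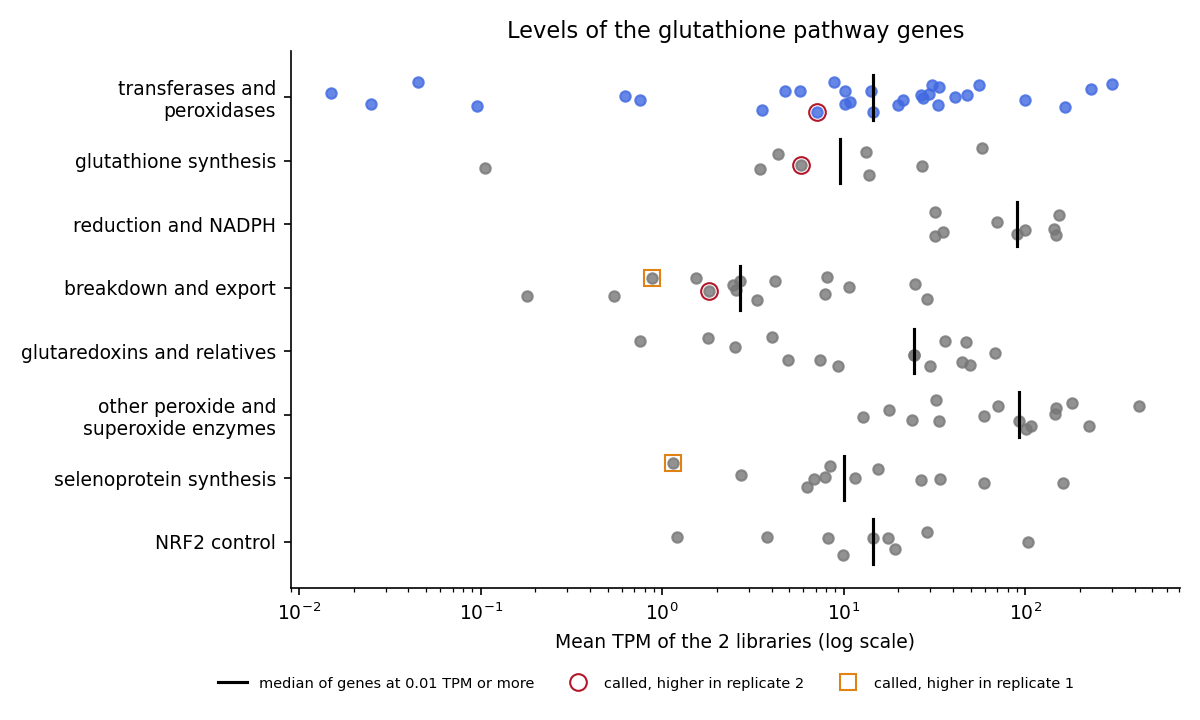
Mean TPM of the 2 libraries (log x axis) for the 33 genes (blue) and 7 lists of related genes (grey), 1 point per gene at 0.01 TPM or more, with black lines for medians and rings or squares for genes called between the libraries. The reduction list and the list of other peroxide and superoxide enzymes lie highest, and the called genes are Gstp3, Cbs, Abcc2, Ggt1 and Lrp2.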

How the data were processed

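Total RNA from adrenal glands was measured in 2 libraries of 1 group. Per the text deposited with the files, tables were made per library against mm10 and GENCODE M21. Programs and versions: not given in the sources used here. Per gene and transcript, the authors deposited expected counts, TPM and FPKM from alignments, and estimated counts and TPM per transcript from an alignment-free method; expected counts were rounded before testing. Genes were kept with filterByExpr (18160 genes) and scaled with TMM in edgeR 4.0.16 (R 4.3.3). Counts of each gene were set against each other by an exact two-sided binomial test (scipy 1.17.1), with Benjamini-Hochberg adjustment over all genes; a call needed an adjusted p under 0.05 and over 2-fold. With 1 library on each side, its p-values cover counting error only, not the spread between animals. Log2 ratios used a prior count of 0.5. DESeq2 1.42.0 size factors were an alternative. The test was tried on simulated counts that held counting error only, so that trial does not cover the spread between animals. Detection was a mean of 1 TPM. Use of strand in counting is likewise unknown here, so overlapping antisense genes are uncertain. The members and lists were chosen with earlier results of these data known. Named were all members, the 3 highest and every called gene of each pathway list, and marker lists as counts and ranges. The members' full description was to cover those over 1.5-fold apart between the kinds of table; as this held for all 25, distance from the median ratio was used instead, an alternative chosen after seeing the data. Rows naming no gene (3 and 2 counts) stayed out; spike-ins (1.06% of counts in each library) served only to set a library size.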

Additional observations from a re-analysis of the deposited data

Results flagged for a closer look

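Pseudogenes of these families, which lie outside the set of genes studied and whose counts are not given above, carried expected counts in the alignment-based tables. Gpx4-ps2, a transcribed processed pseudogene on chromosome 10 (chr10:45875291-45876086), had 693 counts in replicate 1 and 649 in replicate 2, above the 3 counts that a count of 0 allows, while the alignment-free tables gave it 8.44 and 0. Gstp-ps had 28.1 and 29.2 counts, and 0 in both alignment-free tables. Gstm2-ps1 had 9.2 and 4.63 counts, and 0 in both alignment-free tables.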

How the results depend on the processing

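No paired analysis was possible because the series has 1 group. Detection of the 25 genes, the 0 calls higher in replicate 1, the median log2 ratio and the count of main transcripts kept their value or stayed close under the alternatives tried. A 1.5-fold threshold added Gsta3, for 2 calls higher in replicate 2; under the DESeq2, total-count, spike-in, unfiltered and alignment-free settings the call was Gstp3 alone. In the alignment-free tables the class shares were 24.8% microsomal, 12.8% mu, 12.8% pi, 3.38% alpha and 3.08% omega. The number of genes within 1.5-fold between the tables was 0, and with a replicate left out it ranged from 0 to 1 (Mgst1, without replicate 1). It was 13 at a 2-fold tolerance. Centred on the median of the genes at 1 TPM or more in both kinds of table, it was 24, an alternative chosen after seeing the data. Some log2 ratios near 0 changed sign. With total counts or spike-ins, which moved the median of all genes tested from 0.00 to 0.03, they were 0.01 for Gsto1, 0.02 for Mgst3, 0.00 for Gstm4 and 0.02 for Gsta4. With alignment-free counts they were 0.01 for Gsto1, 0.00 for Mgst3, 0.01 for Gstm4 and -0.02 for Gstm6. The cause of the latter was not tested. All 25 levels moved in the alignment-free tables and on the protein-coding scale. With 2 libraries, animal-to-animal spread is poorly known, and counting error limits the genes under 1 TPM.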
